A study of Rattus norvegicus with 6 samples.

Results

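The genes described here are the core of the Hedgehog pathway in rat liver: the ligands Shh and Ihh, the receptor Ptch1, the signal transducer Smo, the transcription factors Gli1, Gli2 and Gli3, and the decoy receptor Hhip. They were chosen by name, and a probe was taken as theirs when the RefSeq accession it carries belongs to one of the 8 genes. This gave 9 probes for 7 of the 8 genes, out of 15443 genes with a named probe on the array. Hhip was matched to no probe and is not analysed here. Ihh and Gli2 had 2 probes each, and each probe was printed as 2 spots per array.

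RNA was taken from liver tissue blocks of 6 rats, 3 with normal livers and 3 whose livers had become fibrotic after surgical ligation of the bile duct, which stops bile from draining. Each animal was measured on 1 array of 1 colour (Cy3). Strain, sex, age, the time after ligation and whether the normal rats had a sham operation are not given in the sources used here. A tissue block holds all cell types of the liver, so for every value below, fewer cells of a type and less RNA per cell cannot be told apart.

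A Hedgehog ligand is secreted, binds Ptch1 on a receiving cell and lifts the block that Ptch1 holds on Smo. Smo then acts at the primary cilium, a single antenna-like projection of the cell, and Gli2 and Gli3 pass from repressor to activator forms that switch on target genes. Gli1, Ptch1 and Hhip are themselves classic target genes, so their RNA is widely used as a readout of pathway activity. In adult liver the pathway is known to be quiet, and in cholestatic injury its ligands are known from bile duct cells and myofibroblasts, while stellate cells are known to respond to it.

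None of the core genes passed the test between fibrotic and normal livers. Of the 8 genes, 4 were bright enough to test (Ihh, Ptch1, Gli1 and Gli3), and 0 of these 4 were called in either direction by limma at an adjusted p under 0.05. At an unadjusted p under 0.05 the count was also 0. Over all 7433 genes tested, 24.0% were called, 18.2% higher and 5.77% lower in fibrosis. Groups that did not overlap were found for 41.7% of the 5505 genes with a value on every array, and for 0 of these 4. The median difference of the 4 genes was -0.21 on the log2 scale, beside 0.03 for all tested genes. A level here is the log2 of the scanner's processed signal minus the 75th percentile of that array, and a difference is fibrosis minus normal.

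**Figure D1:**
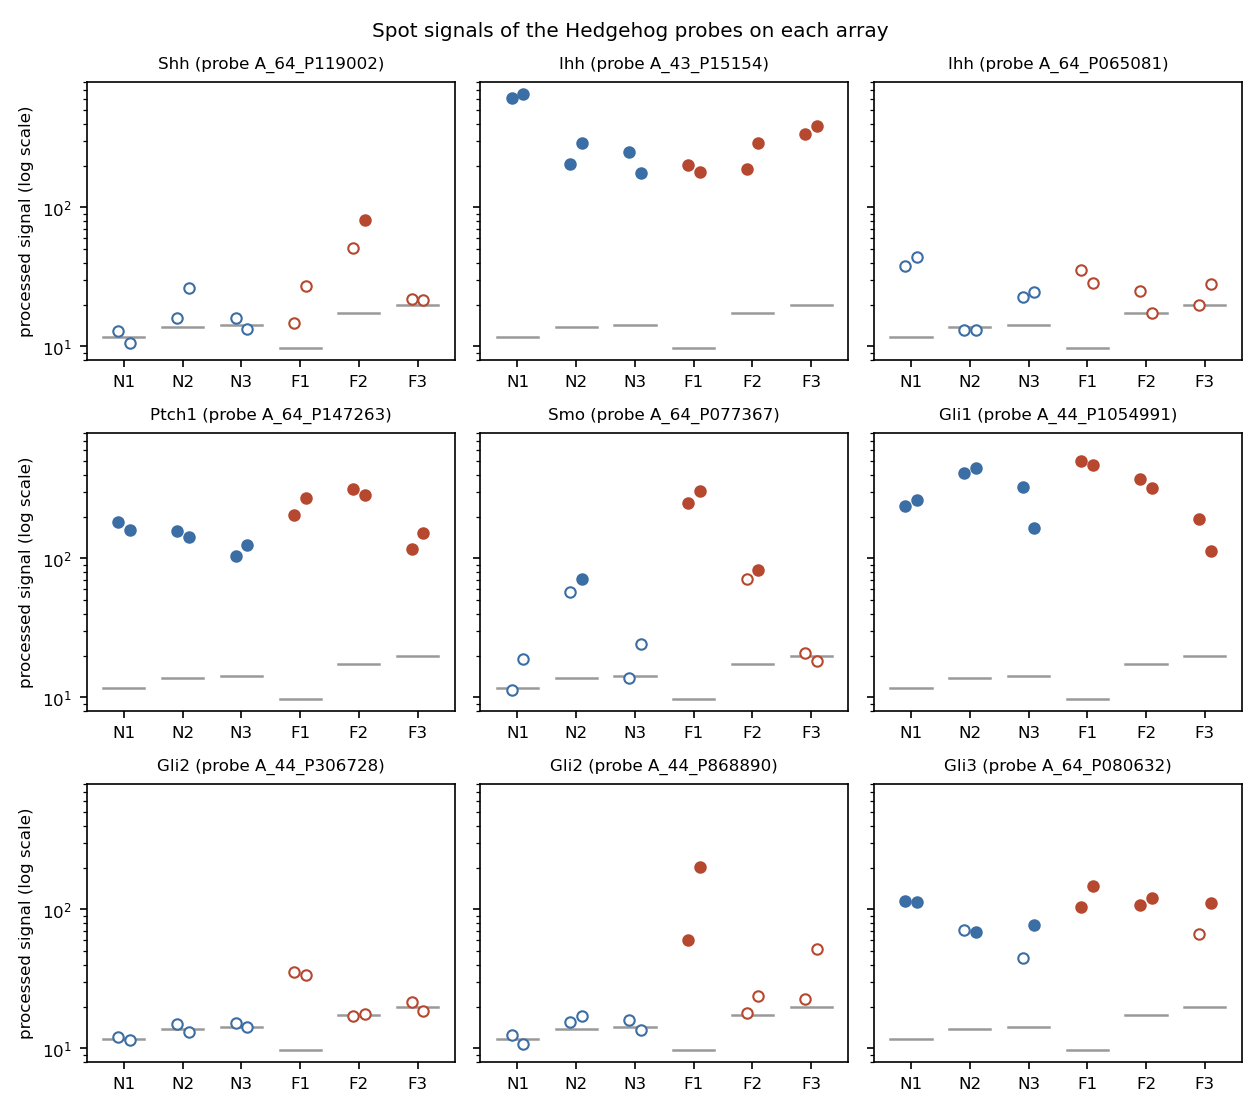
Processed signal (log axis, arbitrary scanner units) of each spot of the 9 Hedgehog probes on the 3 normal arrays (N1 to N3, blue) and the 3 fibrosis arrays (F1 to F3, red). Filled points were well above background, open points were not, and the grey line is the median signal of the 308 negative-control spots of that array. Gli1, Ptch1 and one Ihh probe are filled on every array, Smo and Gli2 are brightest on fibrosis array 1, and Shh has its single filled point on fibrosis array 2.

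Of the ligands, Shh (Sonic hedgehog) was near background in all but 1 liver. Its probe, A_64_P119002, was well above background in 0 of 6 normal spots and in 1 of 6 fibrosis spots. That spot was on fibrosis array 2, where the 2 spots read 51.0 and 81.4, while the other 10 spots lay between 10.6 and 27.2. For comparison, the median negative-control signal was 11.8 to 14.3 on the normal arrays and 9.79, 17.3 and 20.0 on fibrosis arrays 1 to 3. Shh was therefore not tested, and levels below background have no order. With the filter on dim probes removed, its difference was 0.57 ± 0.52 (SE, n = 3 per group; limma adjusted p = 0.627), and -0.05 without fibrosis replicate 2.

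Ihh (Indian hedgehog), the second ligand, was measured on every array by one of its probes. The levels of probe A_43_P15154 were -2.62, -4.16 and -4.16 in the normal livers and -5.07, -4.36 and -3.83 in the fibrotic livers. The first normal liver was the highest of the 6, and the other 5 overlapped. The mean was -3.65 ± 0.89 (SD, n = 3) in normal and -4.42 ± 0.62 (SD, n = 3) in fibrotic livers. The difference was -0.77 ± 0.49 (SE), with a 95% interval from -1.89 to 0.35 and a limma adjusted p of 0.300. Without normal replicate 1 it was -0.26 (limma adjusted p = 0.720), so the size of this difference rests on 1 animal. The other Ihh probe, A_64_P065081, was not well above background in any of its 12 spots, which read 13.1 to 43.9. It shares its accession with the bright probe, so the probes disagree on whether Ihh RNA was detected. Which of them reads Ihh was not tested, and the levels above rest on the bright probe alone.

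Ptch1 is the ligand's receptor and a direct target gene of the Gli factors. A stretch of its promoter is shown because it carries the consensus Gli binding motif, searched as GACCACCCA on both strands. The stretch is the 250 bases before the start site in the RefSeq promoter table (GRCr8, chr17:1555321-1555570, plus strand), with the match, which lies on the minus strand and reads TGGGTGGTC on the strand shown, in capitals.
Ptch1: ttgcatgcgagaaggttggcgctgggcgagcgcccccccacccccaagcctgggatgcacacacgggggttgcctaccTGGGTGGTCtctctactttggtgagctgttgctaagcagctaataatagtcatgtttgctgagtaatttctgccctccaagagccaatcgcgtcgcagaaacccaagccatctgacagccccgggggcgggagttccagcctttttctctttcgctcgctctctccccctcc
The match ends 163 bases before the start site. In windows of 300 bases (250 before and 50 after the start site), the motif was in 129 of 33469 rat promoters, or 0.385%. The table held 5 of the 8 core genes, and Ptch1 was the 1 with a match. Among all 128 pathway genes of the lists below, 89 had an entry and 2 had a match, Ptch1 and Ulk3. Ulk3, a kinase that phosphorylates Gli proteins, differed by -0.49 ± 0.25 (SE; limma adjusted p = 0.205). A match in letters is a description of the sequence only, and these arrays hold no measurement of binding.

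The RNA of Ptch1 was well above background in all 12 spots of probe A_64_P147263 and did not separate the groups. Its levels were -4.52, -4.87 and -5.04 in the normal livers and -4.75, -4.01 and -5.25 in the fibrotic livers. The fibrotic livers held both the highest and the lowest value. The means were -4.81 ± 0.27 (SD, n = 3) and -4.67 ± 0.62 (SD, n = 3), and the difference was 0.14 ± 0.35 (SE; 95% interval -0.65 to 0.94; limma adjusted p = 0.809). The sign of this difference turned without fibrosis replicate 2, to -0.19, and under 5 of the other settings tried, so Ptch1 has no direction here. The interval leaves out a change of 1 log2 unit in either direction under the reported scaling, and with scaling to the E1A spike-in spots the difference was 0.49 ± 0.33 (SE).

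Smo, the membrane protein released by Ptch1, was the most uneven of the core genes. Probe A_64_P077367 was well above background in 1 of 6 normal spots and in 3 of 6 fibrosis spots, and it was not tested. On fibrosis array 1 both spots were bright, at 251 and 307. Fibrosis array 2 gave 71.1 and 83.3, fibrosis array 3 gave 20.7 and 18.2, and normal array 2 gave 57.5 and 71.6. The 2 remaining normal arrays read 11.2 to 24.1, so the fibrotic livers spread from the highest Smo signal of the 6 arrays down to the negative-control level. With the filter on dim probes removed, the difference was 1.10 ± 0.86 (SE; 95% interval -0.86 to 3.05; limma adjusted p = 0.541). It was 0.27 without fibrosis replicate 1 (limma adjusted p = 0.850).

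Gli1, the activator whose RNA is the usual readout of the pathway, was measured on all arrays and did not pass the test. All 12 spots of probe A_44_P1054991 were well above background, with signals of 166 to 446 on the normal arrays and 113 to 499 on the fibrosis arrays. Its levels were -3.97, -3.36 and -4.01 in the normal livers and -3.72, -3.80 and -5.12 in the fibrotic livers. The third fibrotic liver was the lowest of all 6, and the first and second lay inside the normal range. The means were -3.78 ± 0.37 (SD, n = 3) and -4.21 ± 0.79 (SD, n = 3). The difference was -0.43 ± 0.41 (SE; 95% interval -1.37 to 0.51; limma adjusted p = 0.494). Without fibrosis replicate 3 it was 0.02 (limma adjusted p = 0.968), so its sign rests on that animal.

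Gli2, the main activator that passes the signal from Smo to the target genes, was detected in 1 liver. Probe A_44_P868890 was well above background in 0 of 6 normal spots, which read 10.8 to 17.2, and in 2 of 6 fibrosis spots. Both of those were on fibrosis array 1 and read 60.6 and 203, which is a wide gap for 2 spots of 1 probe on 1 array. Fibrosis array 2 read 18.1 and 24.0, and fibrosis array 3 read 22.7 and 52.2. With 1 of 3 fibrosis arrays measuring it, no fold is given. The other Gli2 probe, A_44_P306728, was not well above background in any of its 12 spots, at 11.5 to 15.3 on the normal and 17.1 to 35.4 on the fibrosis arrays.

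With the filter on dim probes removed, Gli2 differed by 1.18 ± 0.49 (SE; 95% interval 0.07 to 2.30) at an unadjusted limma p of 0.0403 and an adjusted p of 0.183. In that fit 12.2% of 12143 genes were called. Levels of Gli2 on the 5 arrays below background have no order, so the groups' separation on this probe is a statement about fibrosis array 1. Without fibrosis replicate 1 the difference was 0.62 (limma adjusted p = 0.293), and with normexp background correction it was -0.29.

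Gli3, which acts mostly as the pathway's repressor, did not separate the groups. Probe A_64_P080632 was well above background in 4 of 6 normal spots and 5 of 6 fibrosis spots, and on at least 1 spot of each array. Its levels were -5.09, -5.97 and -5.99 in the normal livers and -5.69, -5.41 and -5.89 in the fibrotic livers. The fibrotic values all lay inside the normal range. The means were -5.68 ± 0.51 (SD, n = 3) and -5.66 ± 0.24 (SD, n = 3), and the difference was 0.02 ± 0.31 (SE; 95% interval -0.69 to 0.74; limma adjusted p = 0.969). Like Ptch1, its sign changed with the scaling.

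**Figure D2:**
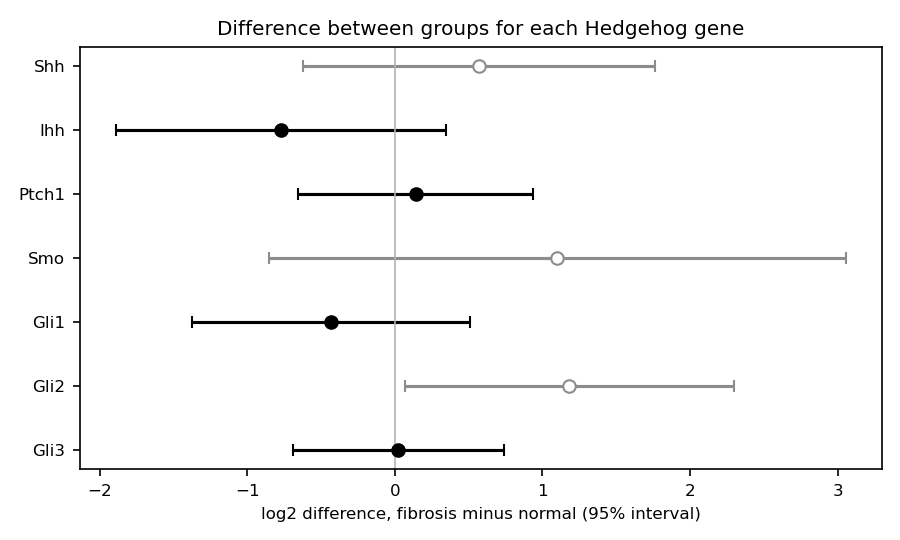
Difference between the groups (log2, fibrosis minus normal) with its 95% interval for the 7 Hedgehog genes with a probe, 3 arrays per group. Filled black points are the 4 tested genes, whose intervals all span 0; open grey points are Shh, Smo and Gli2, which were too dim to test and are shown from the fit with no filter on dim probes.

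The spread among the fibrotic livers was not wider for every core gene. The SD over the 3 fibrotic livers was larger than that over the 3 normal livers for Ptch1 and Gli1, and smaller for Ihh and Gli3. For all tested genes the median SD was 0.239 in normal and 0.437 in fibrotic livers. Fibrosis array 1 held the bright Smo and Gli2 spots and fibrosis array 3 the low Gli1 value. Fibrosis array 1 also had the lowest negative-control signal of the 6, 9.79, and lay in the first row of the slide with the 3 normal arrays, while fibrosis arrays 2 and 3 lay in the second row. The first row alone holds 1 fibrotic liver, whose spread is assumed to equal that of the normal livers. Within it the difference was 0.06 for Gli1, 0.06 for Ptch1, -0.01 for Gli3 and -1.42 for Ihh, with limma adjusted p between 0.190 and 0.992. Smo and Gli2 were bright on that 1 fibrosis array and dim on nearly all normal spots, so no test is given for them there.

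Some genes elsewhere in the pathway passed the test. A further 120 genes, chosen with earlier results of these data known, were grouped by role, and 90 of them had a named probe. Of the 59 that were tested, 17 were higher and 4 were lower in fibrosis, together 35.6%, beside 24.0% of all genes tested. Their median difference was 0.66 on the log2 scale, beside 0.03 for all tested genes. Where every array had to be above background, 14 were higher and 4 lower. Over all genes the counts were then 902 and 347, from 1352 and 429. The numbers tested under that filter are not given here, so these counts are not shares. The counts fell with 1 array left out: 11, 10 and 8 genes were higher without normal replicates 1, 2 and 3, and 9 without fibrosis replicate 1. The lower genes then numbered 1, 2, 0 and 1, and 2 without fibrosis replicate 2. Calls over all genes fell as well, with fewer arrays in the fit. From 1352, the higher genes fell to 1074, 1024, 890 and 987. From 429, the lower genes fell to 189, 211, 142 and 288, and to 354 without fibrosis replicate 2. Spots that the scanner software marked as uneven or as outliers were left out; with them kept, 71 genes were tested, of which 21 were higher and 6 lower with a median of 0.33, beside 15.8% and 9.12% of all genes in that fit.

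**Figure D3:**
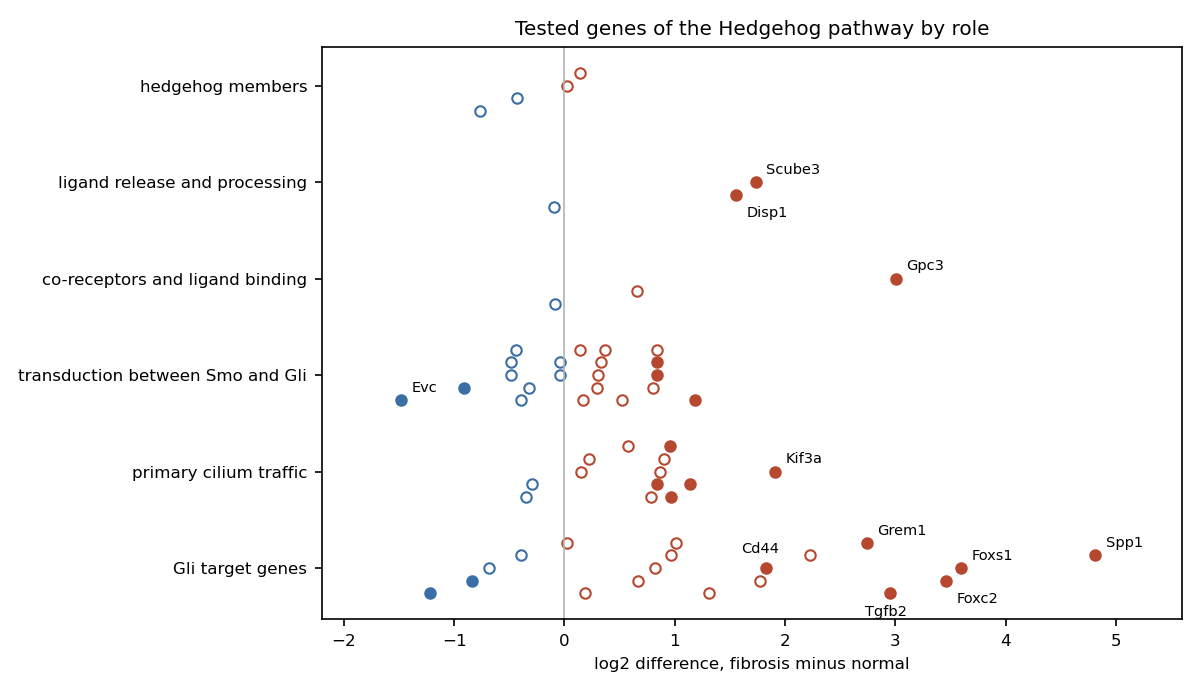
Difference between the groups (log2, fibrosis minus normal) of each tested gene of the core (hedgehog members) and of 5 further lists, 3 arrays per group, one point per gene. Filled points passed limma's test at an adjusted p under 0.05 and open points did not; red is above 0 and blue below. The 4 core genes lie between -0.77 and 0.14 and are open, while Gpc3, Kif3a and 6 Gli target genes are filled on the right.

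Genes that release the ligand from the cell that makes it gave 2 of 3 tested genes higher and 0 lower. Over all genes tested, 18.2% were higher and 5.77% lower. Disp1 (Dispatched 1), which exports the lipid-bearing ligand, had levels of -2.06, -1.74 and -2.94 in normal and -0.80, -1.16 and -0.10 in fibrotic livers. The groups did not overlap, and Disp1 rose by 1.56 ± 0.39 (SE; limma adjusted p = 0.0231). It was no longer called without normal replicate 3 (1.21, adjusted p = 0.0808), without fibrosis replicate 1 (1.62, adjusted p = 0.0503) or in the first slide row alone (1.44, adjusted p = 0.0986). Scube3, a secreted protein of the family that carries the released ligand, rose by 1.73 ± 0.50 (SE; limma adjusted p = 0.0396). Its call was lost in 8 of 20 other settings, among them each normal replicate left out in turn and fibrosis replicate 2 left out, at 1.65 to 1.91, and in the first slide row alone it was 2.97. Adam17, a protease reported to shed ligand, differed by -0.10. Dhh (the third Hedgehog ligand), Disp2, Scube1 and Hhatl had probes that were too dim to test.

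Of the co-receptors and ligand-binding proteins, 1 of 3 tested genes was higher and 0 were lower, beside 18.2% and 5.77% of all genes. Gpc3 (glypican 3), a cell-surface proteoglycan that binds Hedgehog ligand and competes with Ptch1 for it, had levels of -2.13, -2.60 and -3.29 in normal livers and 0.15 and 0.50 on the 2 fibrosis arrays with unmarked spots. It rose by 3.00 ± 0.39 (SE; limma adjusted p = 0.00162) and was called in each of the 19 settings that tested it, at 2.51 to 3.33. With marked spots kept, fibrosis array 3 read -1.09, still above the 3 normal livers. Lrp2 (megalin) at 0.66 and Mgrn1 at -0.09 did not pass the test. Cdon and Gpc5 were too dim to test. Vtn (vitronectin), tested with marked spots kept, fell by 0.88 on the log2 scale (limma adjusted p = 0.0358), in a fit where 25.0% of 10864 genes were called.

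Among the genes that carry the signal from Smo to the Gli factors, 3 of 21 tested genes were higher and 2 were lower, together 23.8%, beside 24.0% of all genes. Without normal replicate 1 or 3 the counts were 0 and 0, without normal replicate 2 they were 1 and 1, and without fibrosis replicate 1 they were 1 and 0. Without fibrosis replicate 2 the lower genes numbered 1. Evc, a protein of the ciliary zone where Smo signals, was the largest decrease: its levels were -4.04, -4.43 and -4.37 in normal and -6.01, -6.26 and -5.02 in fibrotic livers. Evc fell by 1.48 on the log2 scale (SE 0.35; limma adjusted p = 0.0173), and the call was lost with E1A scaling (adjusted p = 0.0875) and without normal replicate 1, normal replicate 3 or fibrosis replicate 1 (adjusted p = 0.0593, 0.0524 and 0.0565). Its partner Evc2 differed by 0.36 (limma adjusted p = 0.357). Efcab7, which tethers Evc and Evc2 at that zone, rose by 1.18 ± 0.26 (SE; limma adjusted p = 0.0129), a call lost without normal replicate 1 or 3 (adjusted p = 0.0532 and 0.0639) and in the first slide row alone (adjusted p = 0.0707).

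Kif7, a ciliary kinesin that regulates Gli processing, and Arrb1, an arrestin that helps Smo reach the cilium, both rose by 0.84 (limma adjusted p = 0.0356 and 0.0260), and were called in 8 and 9 of 21 settings. Dyrk2, a kinase that marks Gli2 for degradation, fell by 0.91 on the log2 scale (limma adjusted p = 0.0479) and was called in 13 of 21. Sufu, the main inhibitor that holds Gli factors in the cytoplasm, differed by 0.33 ± 0.33 (SE; limma adjusted p = 0.525). Gsk3b at 0.53, Csnk1a1 at -0.04 and Prkaca at -0.04, kinases that start the cutting of Gli3 to its repressor form, did not pass the test either. With marked spots kept, Arrb2 was also higher, at 0.84, and Itch, a ubiquitin ligase that acts on Gli1, was lower, at -1.10 (limma adjusted p = 0.0485 and 0.0195).

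Genes of traffic within the primary cilium gave 5 of 13 tested genes higher and 0 lower, together 38.5%, beside 24.0% of all genes tested. The median difference was 0.84, beside 0.03 for all tested genes. With marked spots kept, 6 of 19 were higher and 1 lower, beside 15.8% and 9.12% of all genes in that fit. The median was then 0.29, beside -0.07 for all genes. Under quantile normalization, the array median or the median E1A spot, and without normal replicate 2 or 3, 1 gene was higher; 2 were under cyclic loess or without normal replicate 1, and 3 without fibrosis replicate 1 or 2 or with no filter on dim probes. Kif3a, a motor subunit of the kinesin that builds the cilium, had levels of -3.30, -3.16 and -3.58 in normal and -1.44, -1.20 and -1.67 in fibrotic livers. The groups stood well apart, and Kif3a rose by 1.91 ± 0.25 (SE; limma adjusted p = 0.00106), called in all 21 settings at 1.55 to 2.25. Its sister subunit Kif3b differed by 0.58 (limma adjusted p = 0.232). Tctn2 rose by 1.14, Bbs7 by 0.96 on 2 unmarked fibrosis arrays, Ift81 by 0.96 and Ift172 by 0.84 (limma adjusted p between 0.0197 and 0.0453). Ift81 and Ift172 belong to the transport trains of the cilium, Bbs7 to the complex that moves membrane proteins in it, and Tctn2 to the gate at its base. These calls were less stable: Ift81 was called in 14 of 21 settings, Tctn2 in 9 of 21, Bbs7 in 9 of 19 and Ift172 in 8 of 21.

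Of 19 tested Gli target genes, 6 were higher and 2 were lower, together 42.1%, beside 24.0% of all genes tested. The median difference was 1.01, beside 0.03 for all tested genes. The higher genes numbered 3 where every array had to be above background, which leaves out Foxs1, Foxc2 and Grem1. They numbered 10, with 0 lower, under E1A scaling. Over all genes that scaling gave 1587 higher and 108 lower, beside 1352 and 429 as reported. The lower target genes numbered 0 without normal replicate 3 and 1 without any other array except fibrosis replicate 3. These genes have other regulators as well. The list is a textbook selection made with earlier results of these data known, so its share is a description only. Spp1 (osteopontin), a secreted matrix protein also counted here as a cholangiocyte marker, had levels of -5.47, -4.06 and -4.23 in normal livers and -0.20 and 0.65 on 2 unmarked fibrosis arrays. It rose by 4.81 ± 0.49 (SE; limma adjusted p = 0.000572), the largest rise in the list, and was called in each of the 19 settings that tested it. Foxs1 and Foxc2, forkhead transcription factors, were not well above background on any normal array and were so on all 3 fibrosis arrays. They entered the test through the group where they are high, so bounds are given in place of p-values. Foxs1 read -4.43, -4.23 and -3.58 in the fibrotic livers and was at least 7.31-fold higher, from a fitted difference of 3.59. Foxc2 read -4.55, -5.07 and -4.68 there and was at least 5.33-fold higher, from a fitted difference of 3.46. These bounds hold for the processed signals only. With normexp correction the log2 differences were 1.26 and 1.01, which are smaller folds than the bounds.

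Grem1 (gremlin 1, a BMP antagonist) rose by 2.74 ± 0.54 (SE) on 2 unmarked fibrosis arrays, with 1 of 3 normal arrays well above background. Grem1 too entered the test through the group where it is high, so no p-value is given for it. Cd44, the hyaluronan receptor, rose by 1.83 ± 0.40 (SE; limma adjusted p = 0.0124), a call lost without normal replicate 3 (1.62, adjusted p = 0.0513). With marked spots kept a brighter Cd44 probe stood for the gene, at 3.42. Normexp correction gave 1.06 for Cd44, which was still called, and 1.26 for Grem1. Tgfb2, a TGF-beta ligand, rose by 2.95 ± 0.36 (SE; limma adjusted p = 0.00132) by its brighter probe, while its other probe differed by -0.62. Leaving out fibrosis replicate 1 or 3 made that other probe stand for the gene, at -0.58 and -0.57, so Tgfb2 has no single direction. Hsd11b2, which inactivates glucocorticoids, and Vegfa, the vascular growth factor, were the 2 lower genes and are named after their values were seen. Hsd11b2 fell by 1.22 on the log2 scale (SE 0.24; limma adjusted p = 0.00850). That call was lost with E1A scaling, in the first slide row alone and without normal replicate 3 (adjusted p = 0.0993, 0.0544 and 0.0508). Vegfa fell by 0.83 on the log2 scale (SE 0.25; limma adjusted p = 0.0439) and was called in 11 of 21 settings.

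Ccnd1 (cyclin D1), the cell-cycle target most often used for this pathway, differed by 1.77 ± 0.56 (SE; limma adjusted p = 0.0541), with overlapping groups. Snai1 at 1.01, Snai2 at -0.40 and Igf1 at -0.68 did not pass the test. Bmp4, a BMP ligand of mesenchyme, and Pdgfra, a receptor counted here as a stellate cell marker, had too few arrays for the test as reported. With marked spots kept they were higher, by 2.22 and 1.33 (limma adjusted p = 0.00124 and 0.0297). Mycn, Bcl2, Foxe1, Wnt5a, Nkx6-1 and Osr2 were too dim to test.

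Marker genes of several liver cell types moved with the groups, measured with marked spots kept, in a fit that called 15.8% of all genes higher and 9.12% lower. Of 13 tested cholangiocyte (bile duct cell) markers, 10 were higher in fibrosis and 0 lower, led by Krt7 at 5.65 and Sctr at 5.47. Krt7 was well above background on only 4 of 6 arrays, so its fitted difference includes levels below background. The summed level of the 13, in units of the array's 75th percentile, was 2.97 to 6.01 in normal and 17.8 to 23.8 in fibrotic livers. Markers of stellate cells and myofibroblasts gave 12 of 15 higher and 0 lower, led by Col1a1 at 3.19 and Vim at 3.13. Their summed level was 10.1 to 14.9 in normal livers and 45.6, 49.6 and 26.3 on fibrosis arrays 1, 2 and 3. Markers of portal fibroblasts and mesothelium gave 4 of 6 higher (Msln at 7.98 and Eln at 3.38), with sums of 0.689 to 0.913 and 4.46 to 7.30. Msln, like Krt7, was well above background on only 4 of 6 arrays, with the same limit on its difference.

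Hepatocyte markers, which check the labelled tissue, were well above background on all arrays for 13 of 13 genes. Of these, 0 were higher and 5 lower, led by Cyp2c11 at -7.25 and F9 at -1.64, and their summed level was 116 to 136 in normal and 64.2 to 77.7 in fibrotic livers. Endothelial markers gave 1 higher (Flt1 at 2.44) and 1 lower (Kdr at -0.75) of 7, with sums of 11.8 to 12.7 in normal and 7.52 to 10.8 in fibrotic livers. The sums weight the brightest genes most, and the mean log2 level of these markers went the other way. It was -2.08 to -2.02 in normal and -1.94 to -1.43 in fibrotic livers, with a median difference of 0.19. Macrophage markers gave 1 higher of 10 (Trem2 at 1.60), with sums of 17.4 to 21.1 in normal and 26.3 to 28.7 in fibrotic livers. Neuron and Schwann cell markers gave 2 higher of 6 (S100b, at least 4.18-fold, and Tubb3 at 1.37). Their sums were 0.216 to 0.241 in normal and 0.339 to 0.549 in fibrotic livers. Cd34, a portal fibroblast marker, was well above background on 0 of 6 arrays. These marker shifts lay between the same groups as the changes in Spp1, Gpc3, the Fox genes and the cilium genes above. Spp1 is itself one of the cholangiocyte markers. The part of the marker shifts in the other changes was not tested.

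**Figure D4:**
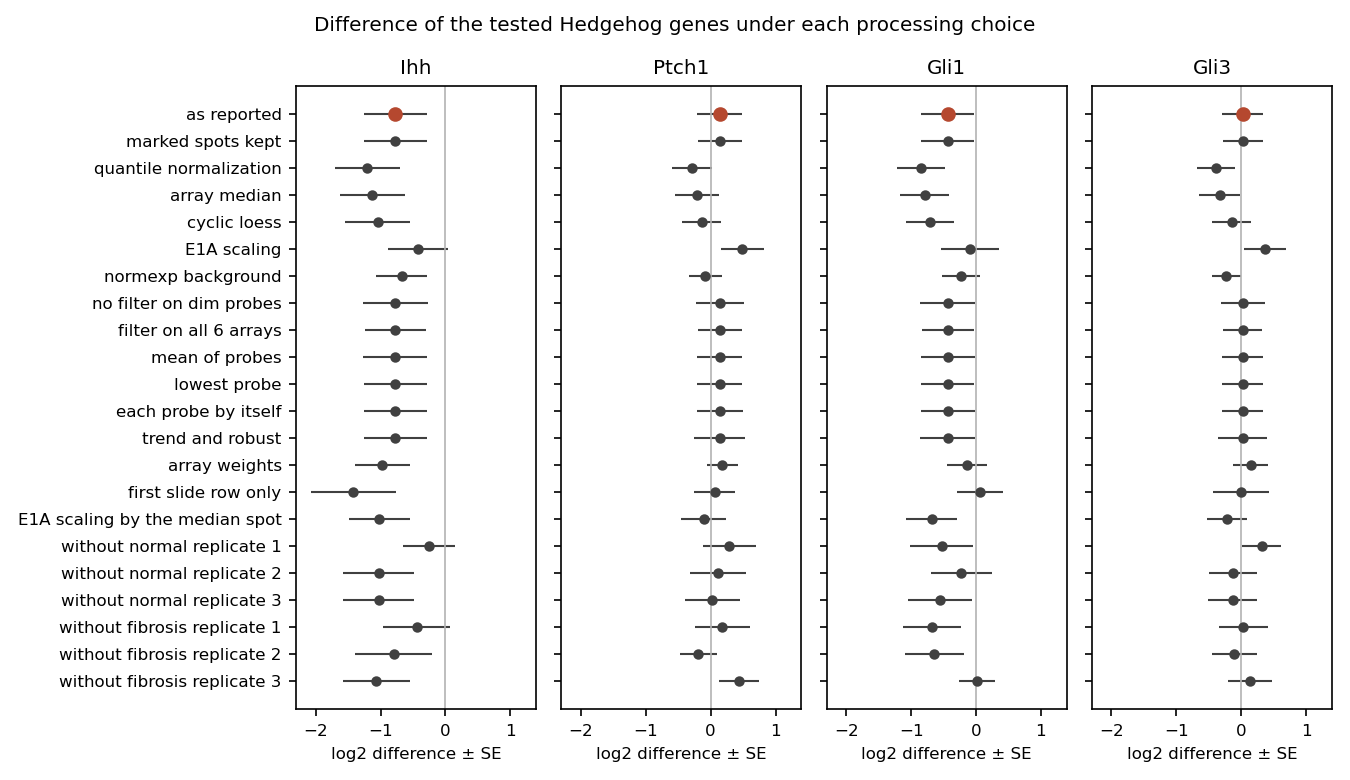
Difference between the groups (log2, fibrosis minus normal, ± SE) of the 4 tested Hedgehog genes as reported (red) and under each other processing choice or with 1 array left out (grey). Ihh stays below 0 throughout, while Ptch1 and Gli3 fall on both sides of 0 with the choice of scaling and Gli1 crosses 0 when the third fibrotic liver is left out or only the first slide row is used.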

How the data were processed

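The deposited values are 1-colour spot intensities from Agilent Feature Extraction 11.5.1.1, with background and spatial trend removed in the processed signal, per the file headers. No scaling between arrays is recorded there. The log2 signals minus each array's 75th percentile were computed over 58717 non-control spots (30367 probes). The percentile was 4016 ± 330 (SD, n = 3) on normal and 5453 ± 833 (SD, n = 3) on fibrosis arrays, 67.2 to 78.0% of spots were well above background, and 0 were saturated. All arrays shared 1 slide and 1 scan. Marked spots (18.8 to 35.2% per array) were left out; none belonged to a core Hedgehog gene. Duplicate spots were averaged. Testing needed at least 0.5 of a probe's spots well above background on every array of one group or both, and values on 2 arrays per group. The brightest probe stood for a gene, with accessions named through the RefSeq GRCr8 table. Groups were compared with limma 3.58.1 in R 4.3.3 (lmFit, eBayes, Benjamini-Hochberg over 7433 genes), checked on simulated data. For a fold bound, each dim array counted at its own value or at its dimmest signal called above background, whichever was higher. Each array is 1 rat, and their number limits the precision.

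The core genes were all named, with every probe. Of each other pathway list the called genes were named, at most 6 by size, and of each marker list 2; other genes named beside them were chosen after their values were seen. The core genes and lists were chosen with earlier results of these data known. A few listed genes are not reported here.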

Additional observations from a re-analysis of the deposited data

How the results depend on the processing

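No core Hedgehog gene was called under 34 of 36 alternatives; with the first slide row alone, with or without marked spots, 1 was: Gli2, which passed the filter there through fibrosis array 1 alone, the 1 fibrosis array in that fit. Ihh kept its direction in all 37 alternatives, at -1.42 to -0.26. The differences that turned sign were: under quantile normalization, Gli3 -0.39 and Ptch1 -0.29; under the array median, Gli3 -0.33 and Ptch1 -0.21; under cyclic loess, Gli3 -0.15 and Ptch1 -0.14; under normexp, Gli3 -0.23 and Ptch1 -0.0795; in the first slide row, Gli1 0.0609 and Gli3 -0.00696. Keeping marked spots gave the same values. Leaving out 1 array in turn gave Gli1 -0.68 to 0.0190, Gli3 -0.13 to 0.32 (-0.12 without normal replicate 2, -0.11 without fibrosis replicate 2) and Ptch1 -0.19 to 0.43. Scaling moved the median of all genes from 0.03 to -0.13 (quantile), -0.33 (array median) and 0.38 (E1A). Relative to that median, Gli1 lay at -0.72 to -0.46 over the scalings, Gli3 at -0.26 to -0.00186, Ihh at -1.07 to -0.79 and Ptch1 at -0.16 to 0.12.

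The E1A scaling used the mean of 280 of the 350 spike-in spots, those well above background on all arrays. It replaced, after its values were seen, the median over all 350 spots of 10 probes, kept as an alternative: that gave Gli3 -0.22, Ptch1 -0.10, a median of -0.22, 808 genes lower and 11 other pathway genes higher. So the sign of Ptch1 and Gli3 under spike-in scaling depends on how the spots are summarised.

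Genes lower in fibrosis, 429 as reported beside 1352 higher, numbered 991 with marked spots kept, 677 (1002 higher) with quantile normalization, 1170 (1005 higher) with the array median, 108 (1587 higher) with E1A scaling, 249 with no filter on dim probes, 899 with array weights and 270 in the first slide row. With 1 array left out they numbered 142 to 524, and the higher genes 890 to 1492. Other pathway genes higher, 17 as reported, numbered 10 under either of quantile normalization and median scaling, and 8 to 17 with 1 array left out. Those lower, 4 as reported, numbered 0 with E1A scaling, 2 with no filter, with the mean of probes and in the first slide row, and 0 to 4 with 1 array left out. The cause was not tested. No paired analysis was possible because the labels of the 2 groups share only 1 number. Normexp used median spot signals, since mean signals are not used here. Signal over background limits Shh, Smo and Gli2 most.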

Other observations

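The probes of a cilium gene disagreed: with marked spots kept, Bbs1, a subunit of the same membrane-protein complex as Bbs7, gave -2.60 ± 0.27 (SE; limma adjusted p = 0.000475 over probes) by its bright probe and 0.87 ± 0.33 (SE; adjusted p = 0.111) by its dim one. The groups did not overlap on either probe. The bright probe read -1.29, -0.91 and -1.13 in normal livers and -3.92, -3.29 and -3.91 in fibrotic livers. It was chosen for mention after its values were seen.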
